A study of Mus musculus with 2 samples.

Results

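The genes described here are 9 CC chemokines (Ccl2, Ccl3, Ccl4, Ccl5, Ccl6, Ccl7, Ccl9, Ccl11 and Ccl17) and the receptor gene Ccr2, 10 of the 32286 features counted. They were chosen by name, and no measured value entered the choice. Their RNA was counted in single cells of whole lung from female BALB/c mice aged 9 to 10 weeks. Mice received intravenous injections over 3 weeks, of control media (CM) for one library and of tumor conditioned media (TCM) for the other. The study made TCM by keeping primary 4T1 tumors, a mouse mammary carcinoma line, in serum-free medium, so the mice carried medium and no tumor. The sources used here do not say how many mice went into a library.

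CC chemokines are small secreted proteins that draw leukocytes along a gradient, and they are named for a pair of adjacent cysteines near the start of the mature protein. CCR2 is the receptor for CCL2 and CCL7, and it carries Ly6C-high monocytes out of the bone marrow and into inflamed tissue. CCL3, CCL4 and CCL5 attract monocytes, T cells and natural killer cells, while CCL11 acts on eosinophils and CCL17 on T cells that bear CCR4. In the lung such ligands are made by macrophages, dendritic cells, lymphocytes and fibroblasts.

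All 10 genes are protein coding, and their positions are given on GRCm38. On chromosome 11, Ccl2 (82035571 to 82037453), Ccl7 (82045712 to 82047525) and Ccl11 (82057823 to 82062955) lie next to each other on the plus strand. A second group on that chromosome holds Ccl5 (83525778 to 83530518), Ccl9 (83572919 to 83578636), Ccl6 (83587882 to 83593087) and Ccl3 (83647844 to 83649355) on the minus strand and Ccl4 (83662584 to 83664683) on the plus strand. Ccl17 lies on chromosome 8 (94810453 to 94812036) and Ccr2 on chromosome 9 (124101950 to 124113557), both on the plus strand. The feature that gives the family its name is shown as the coding strand around the 2 adjacent cysteine codons, read 5′ to 3′ from GENCODE vM21 transcripts, with the codon pair in capitals and 18 bases on each side.
Ccl2: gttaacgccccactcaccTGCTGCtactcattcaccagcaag
Ccl7: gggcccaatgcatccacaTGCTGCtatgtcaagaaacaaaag
Ccl11: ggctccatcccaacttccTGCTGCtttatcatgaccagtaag
Ccl3: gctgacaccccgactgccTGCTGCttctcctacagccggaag
Ccl4: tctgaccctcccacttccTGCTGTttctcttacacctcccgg
Ccl5: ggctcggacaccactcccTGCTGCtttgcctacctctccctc
Ccl6: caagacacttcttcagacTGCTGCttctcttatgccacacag
Ccl9: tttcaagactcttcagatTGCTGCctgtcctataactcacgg
Ccl17: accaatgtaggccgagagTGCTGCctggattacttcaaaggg
Each chemokine had 1 such pair, spelled the same way in 8 of the 9 and with another second codon in Ccl4. It began at codon 32 to 34 in 6 of them and later in Ccl17 (codon 43), Ccl6 (codon 50) and Ccl9 (codon 57). Over the whole coding sequence, with gaps counted as differences, the closest of the 36 pairs were Ccl3 with Ccl4 (68.4% identity), Ccl7 with Ccl11 (66.3%) and Ccl6 with Ccl9 (64.6%). The Ccl2 sequence is the longest of the 9 (447 bases), so gaps lower its values, such as 46.6% with Ccl7 over 451 columns. Its closeness to Ccl7 and Ccl11 over the aligned bases was not measured. By this measure none were near-identical over the whole coding sequence.

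The CM library held 31944151 UMIs (unique molecular identifiers, each 1 captured RNA molecule) and the TCM library 36648719. After filtering, 7988 cells remained in CM and 7707 in TCM, at median depths of 2085 and 2346 UMIs, and 93 cell barcodes occurred in both (83.5 expected by chance). Cells were put into classes from fixed marker genes, and a class is called "-like" because the names were rebuilt here. Cells with markers of more than 1 lineage numbered 774 in CM and 678 in TCM and formed a class of their own. Levels are UMIs of the gene per 100000 UMIs of the class (CP100k), and intervals are 95% intervals that cover counting error only. With 1 library per group there was no test, and how far mice of one group differ is not known. Class sizes were unequal, since neutrophil-like cells numbered 243 in CM and 1396 in TCM, classical monocyte-like cells 85 and 207, and NK-like cells 253 and 142. The RNA outside cells was estimated to add 123 UMIs to a cell in CM and 248 in TCM.

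Over all cells, Ccr2 was the only gene of the 10 past 2-fold (a log2 ratio of at least 1 with an interval off 0 and at least 20 UMIs). It had 576 UMIs in CM and 1526 in TCM (2.22 and 5.67 CP100k), a log2 ratio of TCM over CM of 1.35 (1.21 to 1.49). Of all genes tested that way, 2.87% were higher in TCM and 1.8% lower. Ccl6 (0.75, 0.72 to 0.79), Ccl9 (0.82, 0.70 to 0.94) and Ccl17 (0.79, 0.64 to 0.94) were also higher, and Ccl5 (−0.95, −0.99 to −0.91) and Ccl11 (−0.81, −1.13 to −0.50) lower, without reaching 2-fold. Ccl2, Ccl3, Ccl4 and Ccl7 lay between −0.30 and 0.03. The median of the 10 was −0.05, and that of all genes tested was also −0.05. The genes differed in their cell sources, with basophil or mast-like cells first for both Ccl3 and Ccl4 and alveolar macrophage-like cells first for Ccl6.

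**Figure D1:**
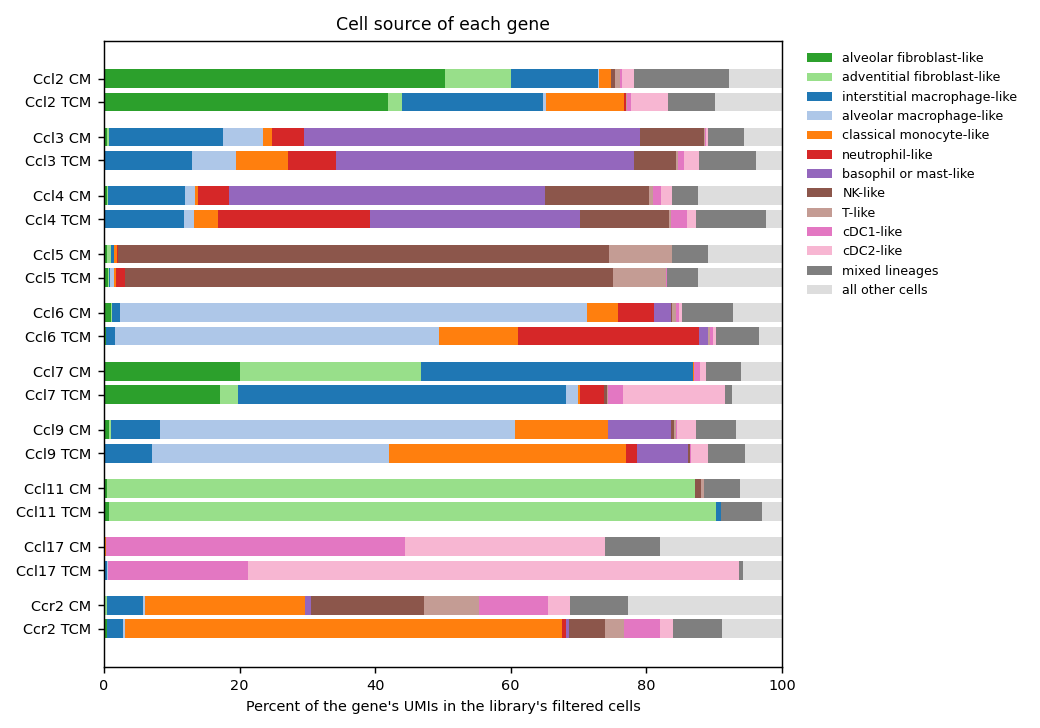
Stacked bars give the percent of each gene's UMIs (x axis) that fell in each cell class, with 1 bar for CM and 1 for TCM per gene. The bars of several genes, such as Ccl6, Ccl17 and Ccr2, differ between libraries, with classical monocyte-like cells at 23.6% of the Ccr2 UMIs in CM and 64.5% in TCM, while Ccl5 stays mostly in NK-like and Ccl11 in adventitial fibroblast-like cells.

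Few cells carried these transcripts. Ccl6 was the most widely seen, in 1198 CM cells (15%) and 2500 TCM cells (32.4%), and Ccl5 followed with 1157 (14.5%) and 834 (10.8%). The remaining 8 genes were seen in 0.311 to 7.02% of the cells of a library. Of the Ccl7 UMIs, 68.7% in CM and 67.5% in TCM came from the 10 cells with most, and 5 cells held at least 50% of them in either library. For Ccl4 50% of the UMIs were held by 12 CM and 23 TCM cells, and for Ccl3 14 and 16. Ccr2 was spread most evenly for its level, with 81 and 89 cells holding 50% and no cell above 18 UMIs. Counting intervals treat UMIs as independent and so understate the error of a total that a few cells hold.

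**Figure D2:**
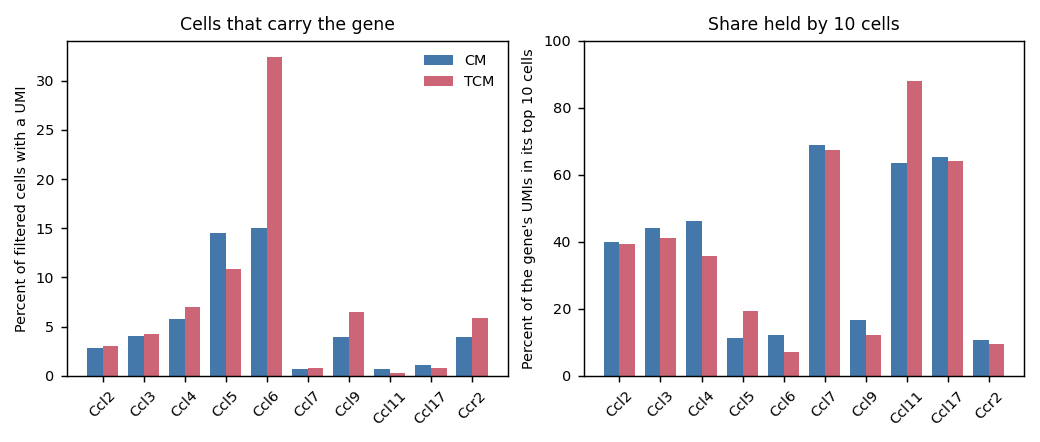
Left, the percent of filtered cells with at least 1 UMI of each gene, and right, the percent of the gene's UMIs held by its 10 richest cells, for CM and TCM. Ccl6 reaches 32.4% of the TCM cells, and the 10 richest cells hold 63.6% of the Ccl11 UMIs in CM but 10.6% of the Ccr2 UMIs.

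Among the ligands of CCR2, Ccl2 had its largest share of UMIs in alveolar fibroblast-like cells in both libraries. Alveolar fibroblast-like cells, which support the alveolar wall, held 918 of 1827 Ccl2 UMIs in CM (50.2%) and 732 of 1746 in TCM (41.9%). Their level was 34.4 CP100k (32.2 to 36.7) against 34.1 (31.7 to 36.7), for a log2 ratio of −0.01 (−0.15 to 0.13). Only 66 of 862 CM cells and 46 of 540 TCM cells of this class had a Ccl2 UMI, and 5 and 6 cells held 50% of the class total, the richest with 135 and 133 UMIs. The class level did not differ between libraries beyond counting error.

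The fibroblast-like cells that carried at least 2 Ccl2 UMIs (47 in CM and 39 in TCM) were compared with those that carried none, a split made after the values were seen and on the gene itself. Ccl7 stood first by fold (40.0 CP100k in carriers against 1.04 in the others in CM, and 37.2 against 0.667 in TCM). The metallothionein gene Mt1 followed the same pattern (807 against 110 in CM and 1103 against 129 in TCM), as did Cxcl1, a neutrophil attractant (60.7 against 9.71 and 51.3 against 3.796), and Tnfaip3, a brake on NF-kappaB signalling (27.8 against 4.63 and 29.9 against 4.57). Each was higher in the carriers of both libraries. Carriers were deeper than the others in CM (medians of 5308 and 1903 UMIs) but not in TCM (3992 and 4111). Of the class's Ccl2 UMIs, 767 in CM and 591 in TCM lay in 119 and 97 cells of 1 Leiden cluster, at 141 and 135 CP100k. Other clusters of the class differed in direction. Cluster 10 had 61 UMIs in CM and 134 in TCM (3.48 and 8.62 CP100k, 430 and 355 cells). Cluster 30 had 75 and 2 (61.5 and 4.94 CP100k, 49 and 8 cells).

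Interstitial macrophage-like cells, the tissue macrophages outside the air space, were the second source of Ccl2. They held 234 UMIs in CM and 363 in TCM, in 31 of 104 and 36 of 126 cells, or 52.6 and 76.2 CP100k (log2 0.53, 0.29 to 0.78). Classical monocyte-like cells had 31 Ccl2 UMIs in 8 of 85 CM cells and 201 in 48 of 207 TCM cells, and 1 CM cell alone had 20 of the 31. Their log2 ratio was 1.04 (0.49 to 1.64). In this class 7 of the 10 genes reached 20 UMIs, of which Ccl2, Ccl4 (20 and 174 UMIs, 1.47, 0.80 to 2.21) and Ccr2 were past 2-fold on the higher side and Ccl5 (56 and 33 UMIs, −2.42) on the lower, beside 3.44% of all genes higher and 3.67% lower. The median of these 7 was 0.86 and that of all genes tested 0.04. Their share of the Ccl2 UMIs was 1.70% in CM and 11.5% in TCM. Adventitial fibroblast-like cells, which surround vessels and airways, went the other way, with 179 UMIs in CM and 36 in TCM (log2 −1.79, −2.35 to −1.27). Only 14 CM and 5 TCM cells carried these counts. Of the 5 genes that reached 20 UMIs in this class, Ccl2, Ccl7 and Ccl5 were past 2-fold on the lower side, as were 2.13% of all genes, with 1.25% on the higher. Leiden cluster 11 held 91 CM and 58 TCM cells of the class. The UMIs there were 39 and 1 for Ccl2, 115 and 1 for Ccl7 and 7 and 4 for Ccl5. Cluster 41, mainly of alveolar fibroblast-like cells, held 87 and 20 of the class's Ccl2 UMIs, and cluster 31 held 50 and 2. Cluster 10, also mainly of alveolar fibroblast-like cells, went the other way in 11 CM and 7 TCM cells of the class. It held 0 and 13 Ccl2 UMIs, 0 and 4 for Ccl7 and 1 and 11 for Ccl5. Of the class's CM Ccl5 UMIs, 43 lay in cluster 45 (16 CM and 0 TCM cells) and 28 in cluster 31.

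Ccl7, the neighbour of Ccl2 on chromosome 11 and also a CCR2 ligand, was much rarer, with 547 UMIs in 56 CM cells and 461 in 63 TCM cells. Interstitial macrophage-like cells held 219 of them in CM and 223 in TCM, 49.3 and 46.8 CP100k (log2 −0.07, −0.35 to 0.20), in 15 and 21 cells. Of these, 12 in CM and 16 in TCM also had Ccl2. Alveolar fibroblast-like cells had 110 Ccl7 UMIs in 12 CM cells and 79 in 11 TCM cells (log2 −0.16). In 2 other classes 1 cell held most of the Ccl7 of a library. In adventitial fibroblast-like cells it had 146 UMIs in CM, 98 of them in 1 cell, and 12 in TCM (log2 −3.08, −4.06 to −2.23). In cDC2-like cells, a type of conventional dendritic cell, it had 5 UMIs in CM, all in 1 cell, and 69 in TCM, 59 of them in 1 cell (log2 2.79, 1.50 to 4.46). Without the richest cell of each library the adventitial fibroblast-like levels were 7.02 CP100k in CM and 1.07 in TCM.

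The receptor gene Ccr2 was highest in classical monocyte-like cells in both libraries. That class, gated on markers such as Ly6c2, F13a1 and Vcan but not on Ccr2, held 136 Ccr2 UMIs in 51 of 85 CM cells and 985 in 181 of 207 TCM cells. Its level there was 41.8 CP100k in CM (interval 35.1 to 49.5) and 96.3 in TCM (interval 90.4 to 103), a log2 ratio of 1.20 (0.94 to 1.47). TCM cells of this class were deeper, with a median of 5418 UMIs against 3615. After every cell was thinned to 1000 UMIs, with 25 CM and 24 TCM cells left out as too shallow, the share with a Ccr2 UMI was 33.3% in CM (21.7 to 46.7%) against 58.5% in TCM (51.0 to 65.7%). General capillary-like cells, an endothelial class that should lack Ccr2, gave 0.130 and 0.344% after the same thinning, with median depths of 2228 and 2800 UMIs.

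The 7 markers of the class, all seen in both libraries, summed to 560 CP100k in CM and 752 in TCM. The sum of the 8 natural killer cell markers in these cells was 21.8 CP100k in CM and 1.47 in TCM, with 4 of the 8 at 0 in either library, and that of the 7 non-classical monocyte markers was 80.0 and 50.4, with none at 0. The 9 interstitial macrophage markers summed to 77.8 and 94.7 CP100k, with 4 at 0 in CM and 1 in TCM. Their part in the Ccr2 difference, and in the lower Ccl5 of this class, was not tested.

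**Figure D3:**
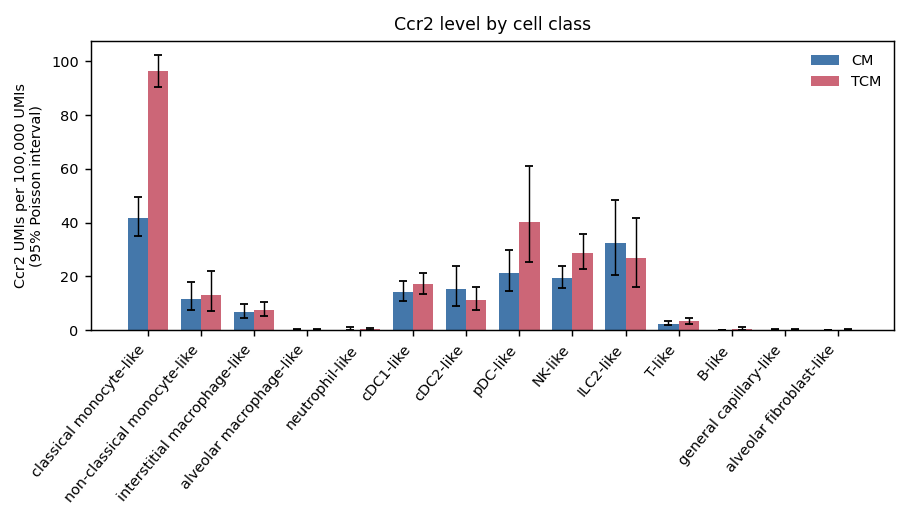
Bars give the Ccr2 level (UMIs per 100000 UMIs, y axis) in 14 cell classes for CM and TCM, with exact Poisson intervals as error bars. The intervals of CM and TCM are far apart in classical monocyte-like cells (41.8 and 96.3) and overlap in the other classes shown.

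Outside the monocytes, Ccr2 was seen in NK-like cells (96 and 81 UMIs, 19.5 and 28.8 CP100k, log2 0.57, interval from 0.12 to 1.01) and in cDC1-like cells (58 and 81 UMIs, 14.2 and 17.1 CP100k, log2 0.27, −0.24 to 0.78). ILC2-like cells, group 2 innate lymphoid cells, had 32.3 CP100k in CM (20.5 to 48.5) and 26.7 in TCM (16.1 to 41.7) from only 37 and 25 cells, and the intervals overlap. In CM the ILC2-like interval also overlaps that of classical monocyte-like cells, so the lead of the monocytes there is within counting error. Non-classical monocyte-like cells, the patrolling subset, had 11.8 CP100k in CM (7.39 to 17.9) and 13.2 in TCM (7.20 to 22.1), below the intervals of the classical class. By level, the order in TCM was classical monocyte-like, then pDC-like (40.3, 25.3 to 61.0), NK-like and ILC2-like, whose intervals overlap one another. In pDC-like cells the Ccr2 log2 ratio was 0.92, from 35 CM and 11 TCM cells. Of these, 34 and 9 lay in 1 Leiden cluster, where Ccr2 was 22.3 CP100k in CM and 25.8 in TCM.

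Ccl3 and Ccl4, which are neighbours, came largely from basophil or mast-like cells. These were 25 cells in CM and 16 in TCM (0.313 and 0.208% of the libraries). The basophil protease gene Mcpt8 and Cpa3 were among their 10 leading genes, but both are markers by which the class was gated. They held 868 of 1749 Ccl3 UMIs in CM (49.6%) and 726 of 1652 in TCM (43.9%), and 2161 of 4643 Ccl4 UMIs in CM (46.5%) and 1521 of 4912 in TCM (31.0%). Of the 25 CM cells, 23 had both transcripts, and all 16 TCM cells did. Ccl3 stood at 1016 CP100k in CM and 1753 in TCM (log2 0.79, 0.64 to 0.93) and Ccl4 at 2530 and 3673 (0.54, 0.44 to 0.63). In the class 4 CM and 3 TCM cells held 50% of the Ccl3. After thinning to 1000 UMIs, in 19 and 15 cells, Ccl3 stood at 1279 and 1687 CP100k and Ccl4 at 3363 and 3120, so that the order of Ccl4 turned.

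NK-like cells came next for Ccl4 in CM, and after neutrophil-like cells in TCM, with 714 UMIs in CM and 650 in TCM, in 114 of 253 and 73 of 142 cells (145 and 231 CP100k, log2 0.68, 0.52 to 0.83). A single CM cell held 334 of the 714, and without the richest cell of each library the levels were 77.5 and 196 CP100k. Interstitial macrophage-like cells had 527 and 568 Ccl4 UMIs at close levels (118.5 and 119.3 CP100k, log2 0.01; 142 and 87.1 after thinning) but less Ccl3 in TCM (294 UMIs in CM and 213 in TCM, 66.1 and 44.7 CP100k, log2 −0.56, −0.83 to −0.30). After thinning the Ccl3 levels were closer, at 71.8 CP100k in CM and 62.4 in TCM. Thinned cells with a Ccl3 UMI made up 25.9% in CM and 25.8% in TCM.

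In neutrophil-like cells the pair differed. Ccl4 had 213 UMIs there in CM (4.59% of the library's Ccl4) and 1099 in TCM (22.4%), in 38 of 243 and 201 of 1396 cells. The level per UMI was somewhat lower in TCM (63.6 and 47.4 CP100k, log2 −0.42, −0.64 to −0.21), and thinned cells with a Ccl4 UMI made up 13.6% in CM (8.71 to 19.8%) against 12.6% in TCM (10.7 to 14.7%). For Ccl3 82 UMIs were counted in CM and 117 in TCM, or 24.5 CP100k (19.5 to 30.4) against 5.05 (4.17 to 6.05), a log2 ratio of −2.28 (−2.70 to −1.85). Of all genes in this class 8.45% were past 2-fold on the lower side and 3.31% on the higher, and the median of all genes tested was −0.21. Cells with Ccl3 made up 33 of 243 and 68 of 1396. The neutrophil-like cells lay in different Leiden clusters, with 74.9% of the CM cells in cluster 20, while 43.1% of the TCM cells were there and 39.8% in cluster 21. Ccl3 was 20.5 CP100k in CM and 7.21 in TCM in cluster 20, and 45.5 (26 cells) and 3.51 in cluster 21. For Ccl4 the values were 80.9 and 59.1 CP100k in cluster 20 and 21.7 and 45.1 in cluster 21. The CM value in cluster 21 came from only 11 UMIs, so its opposite direction is uncertain. The neutrophil marker list summed to 2665 and 2952 CP100k in these cells, and that of non-classical monocytes to 157 and 52.7 (1 of 7 markers at 0 in CM and none in TCM). The large vessel endothelial list summed to 98.8 in CM and 647 in TCM. Such lists are not exclusive, since the non-classical monocyte list gave 119 and 370 CP100k in basophil or mast-like cells. The part of the cells behind these sums in the Ccl3 difference was not tested.

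Ccl5, a product of cytotoxic lymphocytes, was mainly found in 1 class. NK-like cells held 11444 of 15776 UMIs in CM (72.5%) and 6115 of 8495 in TCM (72.0%), and 244 of 253 CM cells and 135 of 142 TCM cells carried it. Their level was 2321 CP100k in CM (interval 2278 to 2364) and 2177 in TCM (interval 2122 to 2232), a log2 ratio of −0.09 (−0.14 to −0.05). That direction turned with Leiden clusters in place of the gate (0.13) and with free RNA subtracted (0.0048). T-like cells were the second source, with 1445 and 665 UMIs (76.1 and 50.9 CP100k, log2 −0.58, −0.71 to −0.45), of which the 10 richest cells held 73.3 and 82.6%. Of these UMIs, 897 in CM and 391 in TCM lay in 9 and 6 T-like cells of the Leiden cluster made up mainly of NK-like cells. There Ccl5 was higher in TCM (967 and 2641 CP100k). In the cluster that held most T-like cells it was 32.6 CP100k in CM and 22.2 in TCM. In empty droplets, Ccl5 made up 85.9 CP100k in CM and 54.98 in TCM, and general capillary-like cells, which should lack it, had a UMI in 4.55 and 4.35% of cells after thinning.

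Ccl6 and Ccl9, neighbours that are found in rodents, were genes of the myeloid cells of the lung. Alveolar macrophage-like cells, the macrophages of the air space, carried Ccl6 in 278 of 284 CM and 328 of 330 TCM cells, with 8791 and 10712 UMIs. Their level was 668 CP100k in CM (interval 654 to 682) and 689.6 in TCM (interval 677 to 703), log2 0.05 (0.01 to 0.09), against a median of 0.11 for all genes tested in the class. Their share of the library's Ccl6 nevertheless went from 68.8 to 47.9%. Neutrophil-like cells had 675 UMIs in CM and 5986 in TCM (5.28 and 26.8% of all Ccl6), with 201 and 258 CP100k (log2 0.36, 0.24 to 0.48). By cluster, the Ccl6 level was 204 CP100k in CM and 149 in TCM in cluster 20, and 275 and 359.7 in cluster 21. Classical monocyte-like cells had 583 and 2582 UMIs (4.56 and 11.5%), with 179 and 252 CP100k (log2 0.49, 0.36 to 0.63). In general capillary-like cells 1.69% (0.902 to 2.87%) and 4.35% (3.10 to 5.93%) had a Ccl6 UMI after thinning, and Ccl6 made up 43.5 CP100k of the empty droplets in CM against 69.6 in TCM.

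Ccl9 was rarer and was found mainly in alveolar macrophage-like and classical monocyte-like cells. In alveolar macrophage-like cells it had 440 UMIs in CM and 539 in TCM, 33.4 and 34.7 CP100k (log2 0.05, −0.13 to 0.24). Classical monocyte-like cells had 115 and also 539 UMIs, 35.4 CP100k (29.2 to 42.4) against 52.7 (48.3 to 57.3), log2 0.58 (0.28 to 0.88), and their share of all Ccl9 went from 13.7 to 35.0%. Thinned monocyte-like cells with a UMI made up 28.3% in CM (17.4 to 41.4%) against 33.3% in TCM (26.6 to 40.7%), and the intervals overlap. Ccl9 and Ccr2 were found together in 36 of 85 CM and 143 of 207 TCM monocyte-like cells. Basophil or mast-like cells had 79 and 117 Ccl9 UMIs (92.5 and 283 CP100k, log2 1.61, 1.19 to 2.04), a class in which 7.67% of all genes were past 2-fold on the higher side and 8.71% on the lower.

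Ccl11, eotaxin, was a transcript of adventitial fibroblast-like cells, with 195 of 225 UMIs there in CM (86.7%) and 119 of 133 in TCM (89.5%). The level was 28.3 CP100k in CM and 24.8 in TCM (log2 −0.19, −0.53 to 0.15), in 38 of 166 and 16 of 107 cells. The richest cell held 70 UMIs in CM and 74 in TCM, and without it the levels were 18.3 and 9.55 CP100k. After thinning, 12.7% of the CM (7.44 to 19.8%) and 10% of the TCM cells (4.68 to 18.1%) had a Ccl11 UMI.

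Ccl17 was a dendritic cell gene. In cDC2-like cells it had 170 UMIs in 6 of 26 CM cells and 752 in 21 of 30 TCM cells, 136 CP100k (116 to 158) and 301 (280 to 324), a log2 ratio of 1.15 (0.91 to 1.40). In this class 4.19% of all genes were past 2-fold on the higher side and 3.67% on the lower. TCM cells were deeper (medians of 8112 and 5159 UMIs), and thinned cells with a UMI made up 22.7% in CM (7.82 to 45.4%) against 57.1% in TCM (37.2 to 75.5%), with intervals that overlap. cDC1-like cells, the cross-presenting subset, had 255 and 215 UMIs in 19 of 50 and 19 of 58 cells, 62.4 and 45.3 CP100k (log2 −0.46, −0.73 to −0.20). Ccl22, the other ligand of CCR4, was found with Ccl17 in 3 CM and 17 TCM cDC2-like cells and in 15 CM and 9 TCM cDC1-like cells. In cDC2-like cells Ccl22 had 20 UMIs in CM and 153 in TCM (log2 1.94, 1.26 to 2.69). A Leiden cluster that took in most cDC1-like (48 and 55) and cDC2-like cells (22 and 25) had a ratio of 0.87, and the cDC1-like cells within it had 62.8 and 45.9 CP100k.

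**Figure D4:**
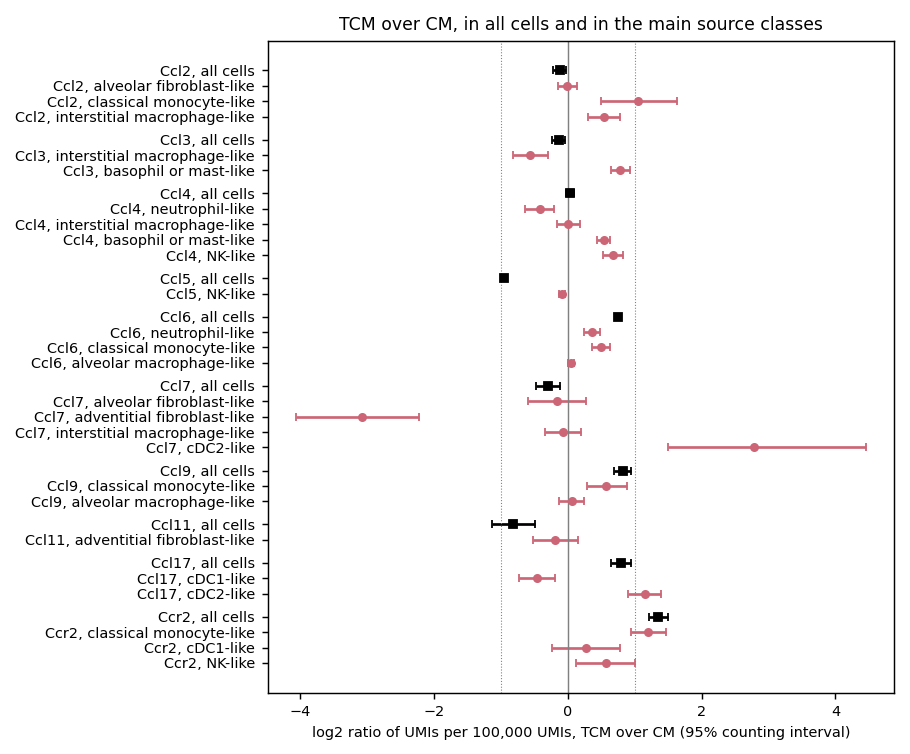
Points give the log2 ratio of TCM over CM (x axis) with its 95% counting interval, as black squares for all cells and red circles for each class that holds at least 10% of the gene's UMIs in a library; dotted lines mark 2-fold. Ccl2, Ccl7, Ccl17 and Ccr2 have a class past 2-fold on the higher side (Ccl2 at 1.04 and Ccl7 at 2.79), whereas Ccl5 is at −0.95 over all cells and at −0.09 in NK-like cells.

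The library ratio of each gene was then divided into the part that comes with the makeup of the library and the part within classes, by exchanging 1 of them at a time. With TCM class shares and CM levels, Ccl5 gave a log2 ratio of −0.68, and with CM shares and TCM levels −0.16. For Ccl6 these values were 0.54 and 0.17. In both the shares gave the larger part. For Ccr2 the order was the opposite, with 0.41 from the shares and 0.81 from the levels. Ccl9 (0.38 and 0.54) and Ccl17 (0.34 and 0.27) had parts of similar size. Ccl3 (−0.03 and 0.39) and Ccl4 (−0.12 and 0.35) gave higher values from the levels than were observed (−0.14 and 0.03). The parts need not sum to the observed ratio, they depend on the rebuilt classes, and they carry no error of sampling mice.

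**Figure D5:**
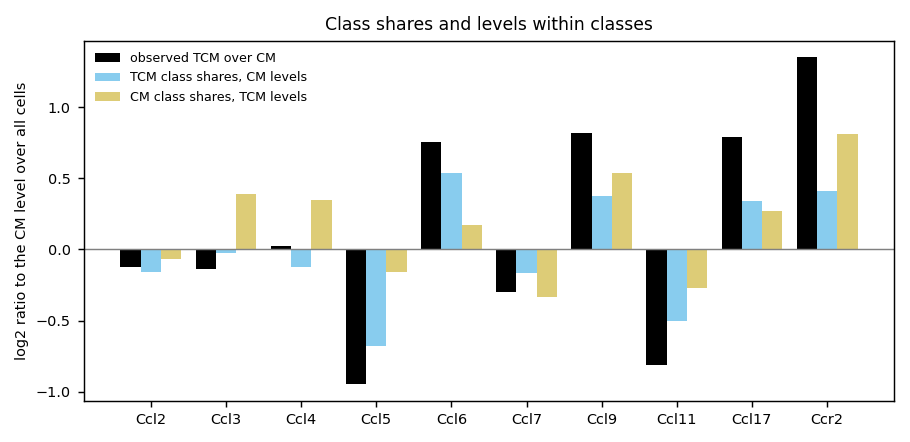
For each gene, bars give the log2 ratio to the CM level over all cells (y axis) as observed in TCM (black), with TCM class shares and CM levels (blue), and with CM class shares and TCM levels (yellow). The blue bar is the larger for Ccl5 (−0.68 against −0.16) and Ccl6 (0.54 against 0.17), and the yellow bar for Ccr2 (0.81 against 0.41).

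The genes closest in pattern were found by Pearson correlation of log2(CP100k + 1) over 40 points, 20 classes in each of the 2 libraries, among 13269 genes with at least 100 UMIs. Classes with under 30 cells in a library were left out. Among these were cDC2-like cells, the largest source of Ccl17, and basophil or mast-like cells, the largest of Ccl3 and Ccl4. The patterns of these 3 genes therefore do not cover their main source. The points share their libraries and cells, and the values are a description. Ccl17 was closest to Ccl22 (r = 0.982), Timd4 (0.974) and Gpr141b (0.973), and Ccl11 to Cpz (0.968), Adgrd1 (0.953) and Penk (0.947). Ccl9 was closest to the scavenger receptor gene Msr1 (0.963), Clec4a3 (0.919) and Cybb (0.910). For Ccl6 the nearest were Csf2rb (0.956), Pira2 (0.955) and Mcemp1 (0.955), and for Ccl5 the cytotoxic granule genes Nkg7 (0.954) and Gzma (0.943) and the receptor gene Il2rb (0.941). Ccl3 and Ccl4 were closest to each other (0.904), followed by Fcer1g (0.892) and Tyrobp (0.883) for Ccl3 and by Gpr65 (0.860) and Arrb2 (0.855) for Ccl4. Genes close to Ccr2 were Runx3 (0.873) and Gpr65 (0.854). Ccl7 was closest to Ccl8 (0.857), Mgl2 (0.854) and Igf1 (0.837), and Ccl2 to Cyp27a1 (0.840), Apoe (0.838) and Pid1 (0.833).

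Of 25 other CC chemokine and receptor genes, 21 reached 20 UMIs over both libraries, with a median log2 ratio of −0.01. Of these 21, 1 was past 2-fold on the higher side and 4 on the lower, beside 2.87% higher and 1.8% lower of all genes over all cells. The 1 was Ccr1, a receptor of CCL3 and CCL5, with 406 UMIs in CM and 3277 in TCM (log2 2.96, 2.81 to 3.11). Neutrophil-like cells held 220 and 2280 of these (65.7 and 98.3 CP100k), and classical monocyte-like cells 27 and 374 (log2 2.14, 1.57 to 2.76). Lower were Ccl8 (264 and 59 UMIs, log2 −2.22), Ccl1 (46 and 8, −2.58), Ccr9 (217 and 66, −1.77) and Ccr10 (38 and 16, −1.30). Ccl8 came mainly from interstitial macrophage-like cells, and 1 CM cell held 119 of the 219 UMIs there. Ccl1 was seen most in ILC2-like, Ccr9 in pDC-like and Ccr10 in plasma-like cells, classes of under 40 cells.

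Ccr7, which guides lymphocytes to lymph nodes, had 4993 UMIs in CM and 3051 in TCM (log2 −0.77), and 132 and 131 CP100k in T-like and 115 and 113 in B-like cells. Ccr6 (250 and 161, −0.69), Ccr8 (167 and 100, −0.80) and Ccr4 (60 and 44, −0.50) had ratios below 0 over all cells, with an interval that included 0 for Ccr4. Ccrl2 had 4072 and 7518 UMIs (0.83), and neutrophil-like cells held 1127 and 3994 of them at 336 and 172 CP100k. The decoy receptor genes Ackr2 (876 and 1196, 0.39), Ackr3 (253 and 296, 0.17) and Ackr4 (204 and 159, −0.42) had most of their UMIs of any class in general capillary-like cells. Among the ligands, Ccl12 (268 and 322, 0.21), Ccl22 (226 and 313, 0.42), Ccl24 (188 and 350, 0.84) and Ccl25 (121 and 141, 0.17) are single features. Ccl19 (110 and 154, 0.43), Ccl21a (596 and 614, −0.01) and Ccl27a (78 and 64, −0.34) sum features of the same symbol, whose reads can be shared between copies, so their values are uncertain.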

How the data were processed

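The deposited matrices hold raw UMI counts per gene and droplet, which the authors made from 5-prime 10x libraries with Cell Ranger (version 4 per the file headers) on mm10 (GRCm38.p6). Droplets with at least 500 UMIs, 200 genes and at most 10% mitochondrial UMIs were kept, as in the study. Each cell took the class, of 31, with the highest mean z-score of its markers, given at least 2 markers seen, a score of 0.5 and a lead of 0.25. Cells with 3 markers and a score of 1.0 in another lineage were set apart as mixed, and 456 CM and 259 TCM cells stayed ungated. Klra8 and Klra4 were not used as markers because under 5 cells had them. Scrublet's own threshold marked 0% of the cells, so it had not worked and no doublets were removed. UMIs were summed per class and library. Intervals are exact Poisson (sums), Clopper-Pearson (shares) and conditional binomial (ratios). The free RNA profile came from droplets with 50 UMIs or fewer, scaled by 7 genes that lymphocytes should lack. Thinning drew 1000 UMIs per cell. Python 3.11.15, scipy 1.17.1 and scanpy 1.11.5 were used, and the ratio rule was tested on simulated data. The members, lists and markers were chosen with earlier results of these data known. The text names all 10 members, classes with at least 10% of a member's UMIs in a library, other CC genes with at least 20 UMIs and the 3 nearest genes by pattern, except for 1 gene that is not reported here. Leiden clusters (resolution 2, 50 components) were made without CC genes. Further classes, values by cluster and the carriers of Ccl2 were chosen after their values were seen.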

Additional observations from a re-analysis of the deposited data

Results flagged for a closer look

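In 4 genes, classes that held at least 10% of the gene's UMIs in a library had log2 ratios of opposite sign with both intervals off 0. The difference between the classes was not tested. Ccl3 was 0.79 in basophil or mast-like and −0.56 in interstitial macrophage-like cells, where thinned levels were closer (71.8 CP100k in CM and 62.4 in TCM). Ccl4 was 0.68 in NK-like and −0.42 in neutrophil-like cells. Ccl7 was 2.79 in cDC2-like and −3.08 in adventitial fibroblast-like cells, where single cells held 59 of the 69 TCM UMIs and 98 of the 146 CM UMIs. Ccl17 was 1.15 in cDC2-like and −0.46 in cDC1-like cells.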

How the results depend on the processing

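No paired analysis was possible because each group holds 1 library. Of 123 recomputed log2 ratios, 106 stayed within the reported interval. Of these, 4 changed sign close to 0, namely Ccl2 in alveolar fibroblast-like cells with Scrublet (0.067) and with free RNA subtracted (0.017), Ccl7 in interstitial macrophage-like cells with Leiden clusters (0.20) and Ccl4 over all cells with Scrublet (−0.020). In Leiden clusters named by their gated cells, Ccl4 in the NK-like cluster was 0.87, and the direction also turned, beyond the interval, for Ccl5 in the NK-like cluster (0.13) and for Ccl17 in the cluster named cDC1-like (0.87), which took in most cDC2-like cells. Subtraction of free RNA turned Ccl5 in NK-like cells to 0.0048 and gave −1.01 over all cells. A stricter gate gave −0.14 for Ccl5 in NK-like cells, removal of the top 6% by Scrublet −0.90 for Ccl5 over all cells, and a minimum of 1000 UMIs 0.11 for Ccl4 over all cells. As mean UMIs per cell, the ratio was 0.35 for Ccl2 in alveolar fibroblast-like and 1.57 for Ccr2 in classical monocyte-like cells, and over all cells −0.014 for Ccl2, −0.031 for Ccl3, 0.13 for Ccl4, −0.84 for Ccl5 and 0.86 for Ccl6. With the largest class of any size as the source, a choice made after the values were seen, Ccl3 turned to 0.79 (basophil or mast-like) and Ccl17 to 1.15 (cDC2-like). Apart from division per cell, the cause was not tested. For Ccr2 in classical monocyte-like cells the range was 1.18 to 1.57. With a minimum of 50 UMIs instead of 20, 51 of 54 counts of all genes past 2-fold moved by over 1.5 times, among them the lower ones over all cells (from 289 to 183 genes), in neutrophil-like cells (514 to 295) and in classical monocyte-like cells (224 to 75, with the higher ones from 210 to 135), both in adventitial fibroblast-like cells (higher 82 to 18, lower 140 to 35), cDC2-like cells (97 to 39 and 85 to 27) and basophil or mast-like cells (66 to 28 and 75 to 34), since fewer genes were tested.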
